A study of Mus musculus and Homo sapiens with 12 samples.

Results

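The genes of 5 windows of 1 Mb in the mouse genome (build mm10, the same assembly as GRCm38) were examined: chromosome 8 from 20 to 21 Mb, chromosome 1 from 85 to 86 Mb, chromosome 2 from 98 to 99 Mb, chromosome 14 from 19 to 20 Mb and chromosome 17 from 6 to 7 Mb. A gene was a member if its midpoint lay in a window, and genes named Zfp or longer than 600 kb were to be left out, which removed 0 genes. This gave 136 members of the 54446 mouse genes in the count tables: 22 on chromosome 8, 40 on chromosome 1, 4 on chromosome 2, 36 on chromosome 14 and 34 on chromosome 17. Of these, 65 are annotated as pseudogenes, 40 as protein-coding genes and 31 as non-coding RNAs. The windows were chosen because they are dense in immunoprecipitation peaks of the same mouse libraries, so the values of a member in those libraries are given as a description. Where edgeR calls of members are counted, nothing is read from them.

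Segmental duplications are long stretches of DNA that occur again, nearly unchanged, at other places in a genome. They often carry gene families and decaying copies of genes. Satellite DNA, in contrast, is built of short units repeated head to tail, and the mouse major satellite forms the heterochromatin around centromeres. RNA from either kind of sequence is hard to place, because one read fits several loci. 5-Methylcytosine (m5C) is a methylated RNA base that can be enriched with an antibody.

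The shared regions, the stretches where all 3 mES cell peak lists have a peak, show what kind of sequence these windows hold. For 4 of the windows, 1 shared region of at most 300 bp is printed, read from GRCm38 on the strand of the peak. It is the one with the highest median copy number over its 31-base words, so it need not be typical. Over all shared regions of a window the typical copy number was 8 on chromosome 1 and 3 on chromosome 17. The region printed for chromosome 2 lies in no member. Copies were counted for each 31-base word of a region, and capitals mark bases covered by a word with 100 or more copies in the genome.
chr1:85144761-85144953 (minus strand): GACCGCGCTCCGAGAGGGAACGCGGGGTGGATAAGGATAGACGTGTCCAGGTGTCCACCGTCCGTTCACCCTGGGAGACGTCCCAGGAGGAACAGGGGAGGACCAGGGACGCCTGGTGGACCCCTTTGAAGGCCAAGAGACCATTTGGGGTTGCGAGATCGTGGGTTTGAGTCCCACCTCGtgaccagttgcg
chr2:98664989-98665211 (plus strand): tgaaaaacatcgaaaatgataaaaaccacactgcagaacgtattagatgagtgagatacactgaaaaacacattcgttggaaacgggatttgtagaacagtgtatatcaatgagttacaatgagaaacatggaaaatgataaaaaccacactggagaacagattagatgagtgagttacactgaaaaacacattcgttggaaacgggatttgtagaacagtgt
chr14:19416387-19416620 (plus strand): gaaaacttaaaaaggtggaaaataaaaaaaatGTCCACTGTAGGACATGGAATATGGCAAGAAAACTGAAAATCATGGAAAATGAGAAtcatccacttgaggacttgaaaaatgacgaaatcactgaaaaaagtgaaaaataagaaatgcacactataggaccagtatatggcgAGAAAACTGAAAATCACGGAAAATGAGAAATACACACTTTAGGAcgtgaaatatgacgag
chr17:6346611-6346767 (minus strand): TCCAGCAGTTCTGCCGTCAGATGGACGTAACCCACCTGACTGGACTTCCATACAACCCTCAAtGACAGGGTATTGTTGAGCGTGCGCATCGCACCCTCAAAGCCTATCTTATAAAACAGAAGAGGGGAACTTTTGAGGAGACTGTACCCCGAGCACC
The words of the chromosome 17 sequence occurred 783 times in the median. The chromosome 1 sequence had a median of 121 copies and, at 62.7% G+C, was the most G+C-rich region of its window. Nothing is capitalised on chromosome 2, where the median was 4 copies and the maximum 8. The chromosome 14 sequence mixes words found once with words found up to 159 times. A further region from chromosome 1 and from chromosome 17, chosen after the values were seen, each had an identical partner in the same window.
chr1:85157036-85157198 (plus strand): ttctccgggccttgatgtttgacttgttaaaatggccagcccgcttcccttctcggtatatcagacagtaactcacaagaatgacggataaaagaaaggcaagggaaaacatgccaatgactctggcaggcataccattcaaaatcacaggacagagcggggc
chr17:6268423-6268581 (minus strand): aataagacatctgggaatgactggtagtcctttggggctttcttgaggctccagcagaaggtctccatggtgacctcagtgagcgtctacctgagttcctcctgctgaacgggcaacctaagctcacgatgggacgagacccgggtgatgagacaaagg
The partner of the first lies at chr1:85484479-85484641 on the same strand, 327443 bases away, and differed at 0 of 163 bases. The partner of the second lies at chr17:6478727-6478885 on the other strand, 210304 bases away, and differed at 0 of 159 bases once turned. Reads from such a pair cannot be assigned to 1 copy by sequence, so its regions are not separate measurements.

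The regions on chromosomes 2 and 14 stood apart in sequence. There, 6 of 9 and 7 of 8 overlapped a shared region on the opposite strand, whereas 0 did in the other 3 windows. The word AAAATGAGAAAT, 1 of 4 tied for occurring, on either strand, in the most regions of these 2 windows, was in 7 of 9 regions on chromosome 2 and 7 of 8 on chromosome 14. It was in 30 of 32 shared regions from 3 to 4 Mb of chromosome 9, in 0 regions of the other 3 windows and in 0.262% of the 1528 other shared regions on the chromosomes. Of the 32 regions, 16 also overlapped one on the opposite strand. Where regions overlap, the same bases can hold the word in both, so these regions are not all separate places. Of the distinct 31-base words in the chromosome 2 and chromosome 14 regions, 13.3% and 13.1% were found in that chromosome 9 window. Slid along itself, the body of Gm10800 matched best at a shift of 234 bases, with 67.2% identical bases against a median of 30.7% over shifts. The first shared region of chromosome 9 also matched best at 234 bases, at 81.6%. Gm21738 matched best at 351 bases (60.3%), and Gm10801 at 58 bases with 37.3% only.

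Chromatin-associated RNA (caRNA), the RNA that stays with chromatin when cells are fractionated, was fragmented and either immunoprecipitated with an anti-m5C antibody (IP) or sequenced without enrichment (Input). There were 3 IP and 3 Input libraries from wild-type mouse embryonic stem (mES) cells, grown with LIF, CHIR99021 and PD0325901 and passaged on gelatin to clear feeder cells, and 3 of each from wild-type K562 cells, a human leukaemia line grown in RPMI-1640, per the labels with puromycin (the study's methods name puromycin for its shRNA lines). The titles gave the groups; the antibody label contradicts them for both cell lines (mES cell IP libraries have none, K562 Input libraries have m5C). No IgG control library was analysed here, and the study calls its replicates biological without saying how the cultures were separated, so p-values measure the spread between these libraries. Gene counts were 29007088 to 34752646 in the mES cell Input libraries and 473398 to 592324 in the IP libraries, and 10477119 to 11865285 and 93110 to 111286 in K562. A count of 3, used as the floor, corresponds, as a normalised read count scaled to library size (CPM), to 0.0863 to 0.103 in mES cell Input and 5.06 to 6.34 CPM in IP. Of 8 stem cell markers, 7 reached 1 CPM or more in Input, with a summed level of 1614.7 to 1638.7 CPM, against 53.7 to 55.8 CPM for 6 feeder fibroblast markers. Esrrb alone had 790 to 796 CPM of that stem cell sum. Sox2 was the marker listed at 0. This is not read as absence, because the way genes were counted, described below, can leave a gene at 0.

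The 3 deposited lists of mES cell peaks held 11012, 15235 and 15630 distinct peaks. Peaks that overlapped by at least 1 bp on the same strand were merged into 35162 regions, and 1711 regions had a peak in all 3 lists (shared regions). The windows held 69 of them: 28 on chromosome 8, 14 on chromosome 1, 10 on chromosome 17, 9 on chromosome 2 and 8 on chromosome 14. Other windows were as dense. The window starting at 0 Mb of unplaced scaffold chrUn_JH584304 held 81, with no account taken of the length of the scaffold. The windows starting at 3 Mb of chromosome 9, 47 Mb of chromosome 6, 171 Mb of chromosome 1, 143 Mb of chromosome 5 and 3 Mb of chromosome 11 held 32, 15, 14, 11 and 10. The windows starting at 57 Mb of chromosome 2, 39 Mb of chromosome 17 and 140 Mb of chromosome 5 held 8, as many as the chromosome 14 window.

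The windows fell into 2 kinds by sequence. The 31-base words were counted over 2730871774 bases of the GRCm38 chromosomes and scaffolds on both strands. At least 2 copies were found for 80.5% of the words in the chromosome 8 window, 58.9% on chromosome 1, 56.0% on chromosome 17, 38.3% on chromosome 14 and 23.8% on chromosome 2. In the windows from 50 to 51 Mb of chromosomes 1 to 19 and X the lowest share was 6.61%, the median 15.3% and the second highest 29.5%. The highest of those, on chromosome 13, exceeded the shares of 4 of the 5 windows. Inside the shared regions the split was sharper. On chromosomes 8, 1 and 17 the median region had 100.0% of its words in copies, and a typical word occurred 5, 8 and 3 times. On chromosomes 2 and 14 the medians were 57.8% and 44.2%, a typical word occurred 2 times or once only, and G+C content was lower, at 35.4% and 34.6% against 50.5%, 45.8% and 54.1%. The 1560 shared regions elsewhere on the chromosomes had a median of 99.2% of words in copies and a typical copy number of 301, against 100.0% and 5 in the windows.

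Some of the regions in duplicated sequence were copies of one another. On chromosomes 8, 1 and 17, 17 of 52 shared regions (9, 6 and 2) had at least 90% of their words in another shared region elsewhere in the same window. From 3 to 4 Mb of chromosome 9, 6 of 32 did.

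**Figure D1:**
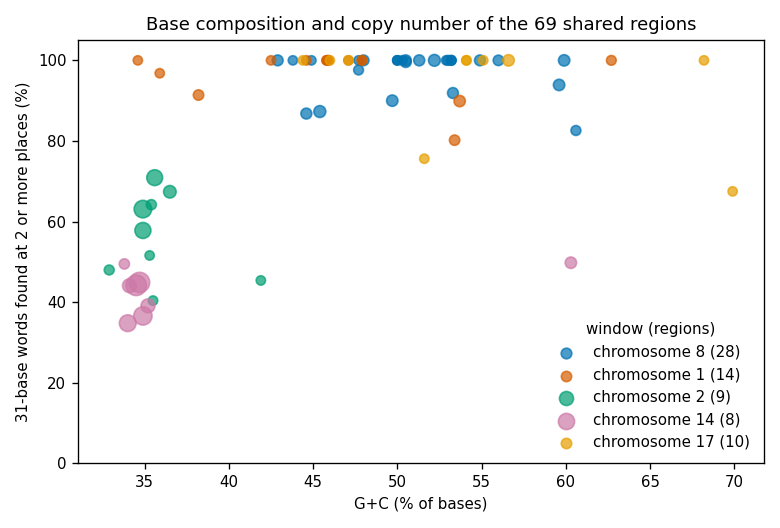
Each point is 1 of the 69 shared regions, placed by its G+C content (x axis, % of bases) and by the share of its 31-base words found at 2 or more places in the genome (y axis, %); colour gives the window and a larger marker a wider region. The regions of chromosomes 8, 1 and 17 lie mostly at 100%, whereas those of chromosomes 2 and 14 lie between 34.8% and 70.9%, most of them near 35% G+C with the region in Gng2 apart at 60.3%.

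How the genes were counted bears on all values that follow. Of 472 protein-coding mouse genes whose whole body lies under another gene on the same strand, 471 had 3 counts or fewer over the 3 mES cell Input libraries (99.8%). The share was 36.9% for the 739 genes wholly under a gene of the opposite strand only, and 30.7% for the 11842 under no other gene. A count of 0 for such a gene is therefore not read as absence of RNA. It applies to 12 of the 39 members with 0 counts in all 6 mES cell libraries, among them Dynlt1b, which lies under the non-coding gene Gm26848, and A530032D15Rik, which lies under C130026I21Rik and holds 2 shared regions. Reads that aligned to more than 1 place were set aside at counting and made up at least 26.8% of all reads counted or set aside in the IP libraries and 6.35% to 6.66% in Input. How many of them came from members was not tested.

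All 5 windows gave a larger share of gene counts in IP than in Input. On chromosome 2 the share was 0.000658%, 0.000711% and 0.000437% in the Input libraries and 1.62%, 1.56% and 1.41% in IP. The IP mean was 2539 times the Input mean. On chromosome 14 the mean was 0.0428% ± 0.00038 (SD, n = 3) in Input and 0.305% ± 0.0136 in IP, and on chromosome 1 0.0150% ± 0.000305 and 0.0987% ± 0.00782. Chromosomes 8 and 17 differed less, with 0.0294% ± 0.00056 against 0.0613% ± 0.00734 and 0.0564% ± 0.000432 against 0.0861% ± 0.0073. In each window the 3 IP values lay above the 3 Input values. These shares are scaled to library size alone, and on that scale the median of all 20244 tested mouse genes was also higher in IP (log2 ratio 0.83). The rise of 1.53 times on chromosome 17 is smaller than that of this median gene, and 2.09 times on chromosome 8 is not far above it.

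**Figure D2:**
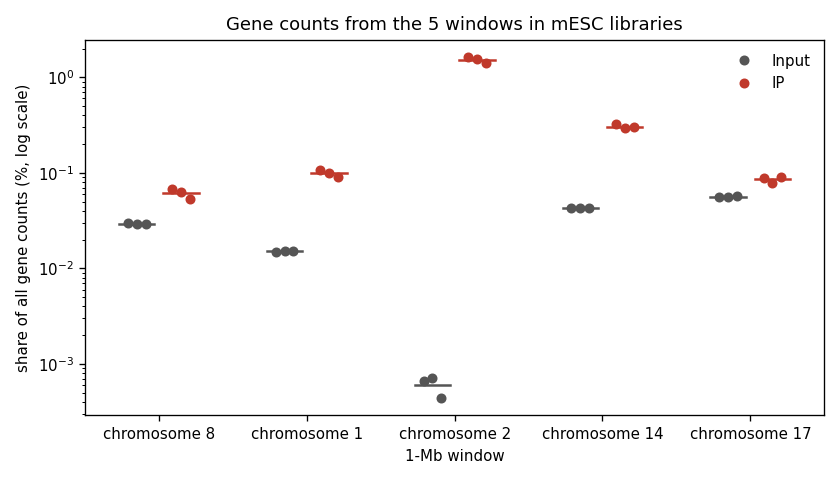
Share of all gene counts that came from the members of each 1-Mb window (y axis, %, log scale) in the 3 Input (grey) and 3 IP (red) libraries of mES cells; points are libraries and bars are means. IP lies above Input in every window, by the widest margin on chromosome 2.

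Few genes made up most of this. Gm10800, Gm10801 and Gm21738, annotated as protein-coding and lying in the chromosome 2 and 14 sequence described above, carried most window counts in IP. The 136 members together had 1442 ± 2.63 CPM in Input and 20803.5 ± 1304 CPM in IP. Without these 3 genes, the other 133 had 1435 ± 1.00 CPM in Input and 2732 ± 182 CPM in IP. That is 1.90 times as much, near the rise of the median tested mouse gene on this scale. The chromosome 14 window without Gm21738 was lower in IP, at 271 ± 36.4 CPM against 427 ± 3.60 CPM.

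The remaining members were also summed by copy number. A member was called multicopy when at least 50% of its exonic 31-base words had 2 or more copies; 79 members were. The nested genes described above point to counts over whole gene bodies. Copies in introns were not counted, so the exonic share, here and for single genes below, may not describe all sequence behind a count. Without those 3 genes, the 77 multicopy members had 509 ± 8.17 CPM in Input and 2016 ± 171 CPM in IP, and the 56 other members had 926 ± 7.76 CPM in Input and 715 ± 25.3 CPM in IP. These sums are carried by abundant genes, for the 56 by Nid2, Ezr and Cab39. By gene, 25 of 40 tested multicopy members were called higher and 6 lower, and 5 of 15 tested other members higher and 8 lower. Over all other mouse genes the shares called higher were 38.2% for multicopy genes and 40.0% for the rest. Of the 30 members called higher, 20, most of them multicopy, passed the low-count filter (described below) through the IP libraries only. On that route 93.9% of other mouse genes were also called higher, so nothing is read from these counts. The widest gap among the windows in duplicated sequence was on chromosome 1, where 28 multicopy members together had 5.96, 7.72 and 6.22 CPM in Input and 910.4, 824.7 and 688.8 CPM in IP. The 12 other members of that window had 144 ± 2.76 CPM and 179 ± 35.4 CPM.

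For single genes, the TMM-scaled log2 IP/Input ratio of edgeR is given with its standard error. TMM (trimmed mean of M values) sets the bulk of genes near 0, and it lies below the ratio of CPM values: the median over all 20244 tested genes was -0.17 with TMM and 0.83 with library size alone. Of the 136 members, 39 had 0 counts, 34 had between 1 and 9 counts in all 6 libraries and 63 had 10 or more. The low-count filter kept 55. Of those, 30 were higher and 14 lower in IP (edgeR, adjusted p under 0.05) and 11 were not called, with a median log2 ratio of 2.58. Over all tested mouse genes 39.9% were higher and 42.0% lower, so most genes were called (82.0%). Among the 63 members with 10 or more counts, the IP values lay wholly above the Input values for 37 and wholly below for 7, and overlapped for 19; over all mouse genes with 10 or more counts, these were 41.1% above and 26.7% below. Because the windows were chosen by IP peaks, nothing is read from these counts.

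The filter weighs on them too. A gene passed with 0.676 CPM or more in at least 3 libraries, a level that 1 count exceeds in IP, and with a total of at least 15 counts. It kept 20 members through the IP libraries only, and all 20 were called higher; so were 93.9% of the 5283 other mouse genes kept that way. The 35 members kept through Input divided into 10 higher (28.6%) and 14 lower (40.0%), and the 14906 other mouse genes kept that way into 3085 higher (20.7%) and 8498 lower.

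**Figure D3:**
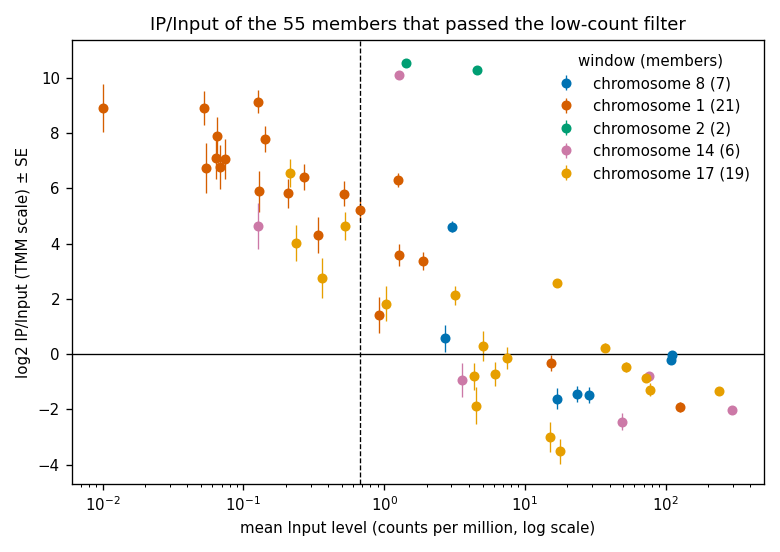
TMM-scaled log2 IP/Input ratio with its SE (y axis) against mean Input level (x axis, CPM, log scale) for the 55 members that passed the filter, coloured by window. The dashed line marks 0.676 CPM, the level a gene needed in Input to pass without its IP values; Gm10800, Gm10801 and Gm21738 on chromosomes 2 and 14 stand above 10 at 1 to 5 CPM.

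Gm10800, Gm10801 and Gm21738 had the highest ratios of the 55. Gm10800 (ENSMUSG00000075014.1, chr2:98666547-98667301, minus strand) had 144, 189 and 108 counts in Input and 5619, 6563 and 6113 in IP, which is 4.597 ± 1.34 CPM against 11117 ± 775 CPM, and a log2 ratio of 10.28 ± 0.0964 (SE). Gm10801 (ENSMUSG00000075015.3, chr2:98662237-98664083, plus strand) had 47, 46 and 44 counts in Input and 2055, 2590 and 2238 in IP, with a log2 ratio of 10.54 ± 0.0939. They are the only genes with counts in their window, since Gm13804 and Gm13806, a pair of pseudogenes, had 0 counts. Gm21738 (ENSMUSG00000095280.1, chr14:19415857-19418930, minus strand) had 36, 49 and 38 counts in Input and 1377, 1567 and 1640 in IP, and a log2 ratio of 10.11 ± 0.0843. For each of them all 3 IP values lay above all 3 Input values.

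On chromosome 1 the members include the speckled protein genes. Sp100 encodes a main constituent of PML nuclear bodies, the protein assemblies that form around the PML protein, and Sp110 and Sp140 encode relatives of it that are best known from immune cells. All 3 were below 1 CPM in Input. Sp100 (chr1:85649988-85709998) had 6, 7 and 7 counts in Input and 13, 11 and 15 in IP, which is 0.207 ± 0.00521 CPM against 23.8 ± 4.57 CPM. Sp110 (chr1:85576899-85598817) had 3, 4 and 7 counts in Input and 29, 44 and 36 in IP. Sp140 (chr1:85600378-85645037) had 10, 22 and 19 counts in Input and 37, 40 and 18 in IP. Their log2 ratios were 5.82 ± 0.531, 7.79 ± 0.464 and 5.81 ± 0.462. In IP and Input the ranges of CPM did not overlap for any of them, and all 3 passed the filter through IP only. They also differ in exonic copy number, with 85.5% of exonic words in copies for Sp110 and 79.3% for Sp140, against 12.99% for Sp100. Sp140 holds 1 shared region, on its own strand, and the other 2 hold none.

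The longest member, C130026I21Rik (277877 bp, protein-coding), holds 10 of the 14 shared regions of the window. It had 25, 51 and 48 counts in Input and 71, 141 and 120 in IP, with a log2 ratio of 6.30 ± 0.256. Gm2619, a transcribed pseudogene that overlaps it and holds 5 of the regions, had 5, 4 and 3 counts in Input and 97, 77 and 61 in IP, with a log2 ratio of 9.14 ± 0.423. Gm6264, another transcribed pseudogene there, had more Input signal (57, 65 and 60 counts) and a log2 ratio of 3.35 ± 0.325 from 16, 20 and 27 IP counts. Same-strand genes cover 60.36% of the body of C130026I21Rik and 66.72% of that of Gm2619, and opposite-strand genes cover all of Gm6264.

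Members of this window with few copied exonic words went both ways. Besides Sp100, 3 of them lay wholly higher in IP, named here after their values were seen: the receptor gene Gpr55 (7 counts over the 3 Input libraries and 29 over IP, log2 ratio 6.79 ± 0.803), Gm28100 (5 and 21, 6.73 ± 0.913) and A630001G21Rik (123 and 51, 3.59 ± 0.413). Gpr55 and Gm28100, like Sp100, passed the filter through IP only, a route on which nearly all genes were called higher. Their IP counts were 3, 11 and 15, and 2, 15 and 4, in part at or under the floor. Abundant members with few copied words did not lie wholly higher. Cab39, which encodes a scaffold of the LKB1 kinase complex, had 3607, 4208 and 4470 counts in Input and 34, 23 and 53 in IP, which is 127 ± 2.19 CPM against 66.8 ± 25.6 CPM and a log2 ratio of -1.90 ± 0.173. Its IP values lay wholly below its Input values. Itm2c, a membrane protein gene, had 15.4 ± 0.963 CPM in Input and 24.2 ± 11.8 CPM in IP, and its ranges overlapped.

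In the chromosome 8 window the non-coding gene Gm26804 held 8 shared regions, all on its own strand. It had 97, 92 and 106 counts in Input and 70, 81 and 92 in IP, which is 3.06 ± 0.280 CPM against 147 ± 8.83 CPM and a log2 ratio of 4.61 ± 0.197. Raw counts for this gene were thus close in IP and Input, although the Input libraries were far deeper. The pseudogene 2610005L07Rik, which overlaps Gm26804 on the opposite strand over 89.7% of its body and holds 3 shared regions on that opposite strand, had 3214, 3650 and 3805 counts in Input and 119, 136 and 96 in IP. The pseudogene 6820431F20Rik had 3215, 3560 and 3702 counts in Input and 101, 120 and 80 in IP. In CPM both were wholly higher in IP, at 215 ± 46.8 against 110 ± 0.681 and 184 ± 42.8 against 108 ± 2.22. With TMM their log2 ratios were -0.03 ± 0.123 and -0.22 ± 0.130, and with library size alone 0.98 and 0.78, so their direction rests on the scaling. Gm21811 and Gm21092, a further pair of pseudogenes with 1 shared region each, had log2 ratios of -1.45 ± 0.299 and -1.49 ± 0.286, which were not called with library size alone. Of the 28 shared regions in the window, 17 lay in no member.

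**Figure D4:**
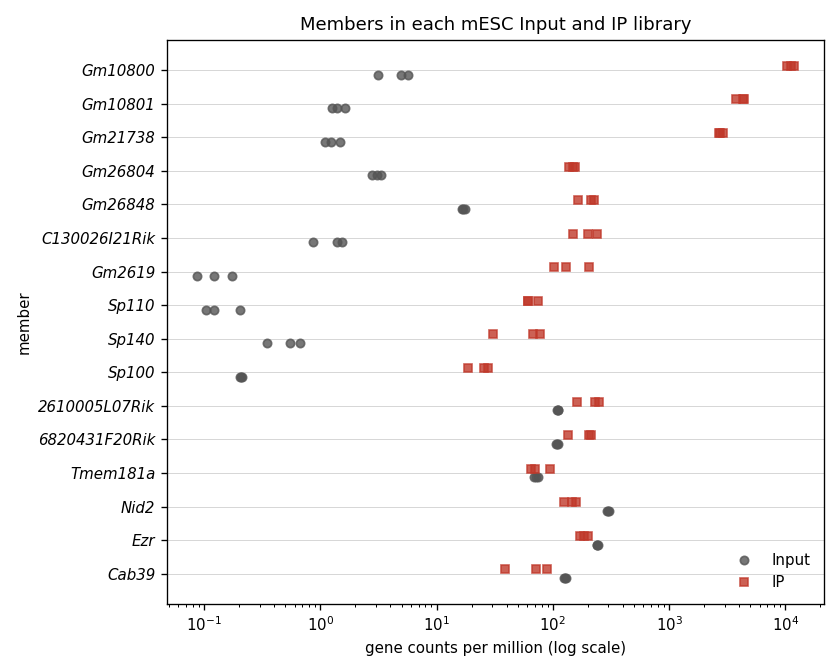
Level of 16 members in each mES cell library (x axis, CPM, log scale), with Input as grey circles and IP as red squares, 3 libraries each. Gm10800, Gm10801 and Gm21738 move furthest to the right in IP, whereas Nid2, Ezr and Cab39 lie to the left of their Input values and Tmem181a overlaps.

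In the chromosome 14 window, 16 of 36 members had 0 counts and 7 had 10 or more. Gm2237, with 92.7% of exonic words in copies, had 132, 100 and 108 counts in Input and 3, 2 and 1 in IP. Nid2, which encodes the basement membrane protein nidogen 2, had 8609, 9982 and 10209 counts in Input and 69, 93 and 74 in IP, and a log2 ratio of -2.03 ± 0.101. Rtraf, which encodes a subunit of the tRNA ligase complex, had 48.8 ± 1.08 CPM in Input and 18.9 ± 16.8 CPM in IP, and a log2 ratio of -2.45 ± 0.311, which was -3.32 without IP replicate 1. Gng2, a G protein gamma subunit gene, holds the only shared region of the window outside Gm21738, and that region was the only one there with a G+C content over 36%, at 60.3%. Its level was 75.9 ± 1.71 CPM in Input and 85.9 ± 11.8 CPM in IP, with overlapping ranges and a log2 ratio of -0.81 ± 0.149 that became 0.20 with library size alone. The non-coding gene 4930469B13Rik had 6, 2 and 4 counts in Input and 1, 3 and 7 in IP, and its log2 ratio of 4.65 ± 0.829 was 3.89 without IP replicate 3.

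On chromosome 17, within the t-complex region, the Dynlt1 and Tmem181 families lie as repeated units. Dynlt1 encodes a Tctex-type light chain of the cytoplasmic dynein motor. Dynlt1a, Dynlt1c and Dynlt1f had 5.02 ± 0.255, 4.49 ± 0.369 and 4.32 ± 0.331 CPM in Input, with 86.04%, 97.02% and 93.81% of exonic words in copies. In IP they had 6, 0 and 14 counts, 0, 3 and 1 counts, and 2, 4 and 2 counts. The ranges overlapped for each, and 6 of these 9 IP counts are at or under the floor of 3. Without IP replicate 2, where it had 0 counts, the log2 ratio of Dynlt1a was 0.95 instead of 0.29, and without IP replicate 3 it was -0.76. That of Dynlt1c was -1.86 ± 0.663 and was called lower, but not with library size alone (-0.86) nor without Input replicate 3, IP replicate 1 or IP replicate 3, and it was -3.19 without IP replicate 2.

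The Tmem181 copies, named for a transmembrane protein, differed. Tmem181a had 71.96 ± 2.56 CPM in Input and 76.6 ± 15.7 CPM in IP. Tmem181b-ps, a transcribed copy annotated as a pseudogene, had 1526, 1682 and 1879 counts in Input and 26, 42 and 55 in IP, and in CPM its IP values lay wholly above. Tmem181c-ps had 102, 93 and 115 counts in Input and 8, 14 and 24 in IP, which is 3.21 ± 0.361 CPM against 27.1 ± 12.1 CPM. The log2 ratios were -0.87 ± 0.156, -0.47 ± 0.174 and 2.13 ± 0.352. With library size alone the first 2 became 0.14 and 0.53, so of the 3 the direction of Tmem181c-ps alone is the same under both scalings. The ratio of Tmem181b-ps was not called when any 1 library other than IP replicate 3 was left out. Gm26848 is a long non-coding gene whose span takes in Dynlt1b and Tmem181b-ps and overlaps Dynlt1a, but not the other Dynlt1 and Tmem181 copies. It holds 5 shared regions, 4 of them on the opposite strand. It had 509, 550 and 585 counts in Input and 107, 96 and 127 in IP, and a log2 ratio of 2.58 ± 0.146.

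Other genes of the chromosome 17 window varied. Ezr, which encodes ezrin, a linker of actin to the plasma membrane, had 240.4 ± 2.35 CPM in Input and 185 ± 13.9 CPM in IP, and a log2 ratio of -1.34 ± 0.0947. Serac1, a phospholipid remodelling gene, had 77.9 ± 3.84 CPM in Input and a wide IP range from 27.2 to 103.5 CPM. Gtf2h5, the smallest subunit of the transcription factor TFIIH, had 509, 602 and 601 counts in Input and 1, 2 and 2 in IP. Tulp4, a tubby-like gene with 58.05% of exonic words in copies, had 37.4 ± 1.68 CPM in Input and 87.5 ± 13.6 CPM in IP, wholly above, with a log2 ratio of 0.24 ± 0.171 that was 1.24 with library size alone and -0.20 without the filter. Ppp1r2-ps1, which holds 1 shared region on its own strand, had 1 count in all 6 libraries.

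The strand recorded for a shared region matched that of its gene about as often as not. Over the genome, 268 shared regions lay on the strand of the gene around them and 293 on the opposite strand (47.8% on the gene's strand). In the windows, 26 members held at least 1 shared region.

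Genes of the same pathways outside the windows were tested in the same mES cell libraries. Of 12 PML nuclear body genes, 11 passed the filter; 10 fell and 0 rose in IP (edgeR quasi-likelihood test, two-sided, Benjamini-Hochberg over all 20244 genes), with a median log2 ratio of -2.06 beside -0.17 over all tested genes. Of all tested genes 42.0% were lower and 39.9% higher, and of the 14906 genes outside the windows kept through Input, as these 11 were, 8498 were lower, with a median of -1.07. At an unadjusted p under 0.05, 10 fell and 0 rose as well, and DESeq2 gave the same counts. Pml itself, the scaffold of these bodies, had 245 ± 9.55 CPM in Input and 117 ± 20.2 CPM in IP (log2 ratio -2.05 ± 0.127, adjusted p = 4.59e-10). The highest ratio of the list was that of the kinase gene Hipk2, at -0.27 ± 0.133, which did not pass (adjusted p = 0.0700) and was 0.74 with library size alone. Under that scaling 1 gene of the list rose and 7 fell. Sumo3 was not tested, at 0.0202 CPM in Input.

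Of 22 genes of cytoplasmic dynein, its activator dynactin and their regulators, 21 passed the filter; 17 fell and 2 rose, with a median log2 ratio of -1.42. All 21 were kept through Input, so the same background (8498 of 14906 lower, median -1.07) stands beside them. Dync1i1, an intermediate chain gene, rose from 6.45, 4.96 and 6.59 CPM in Input to 65.5, 78.2 and 103.0 CPM in IP (log2 ratio 2.82 ± 0.233, adjusted p = 1.53e-08). Dctn3, a dynactin subunit gene, rose with a log2 ratio of 0.80 ± 0.284 (adjusted p = 0.0160). In place of 2, the list had 1 gene higher when any library other than IP replicate 3 was left out. Nde1, a dynein regulator, had the lowest ratio, -2.73 ± 0.235 (adjusted p = 2.41e-08). Dynlt3, the light chain closest in name to the Dynlt1 genes, had 2.92 CPM in Input, and its log2 ratio of 0.57 ± 0.491 did not pass (adjusted p = 0.289). With library size alone 3 genes of this list rose and 10 fell.

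The K562 libraries had no part in choosing the windows, so human genes that share a symbol with a member were tested there. Of 14 such genes, 10 passed the filter; 1 fell in IP, 0 rose and 9 did not pass, with a median log2 ratio of -0.39 beside -0.16 over the 14522 genes tested, of which 15.1% were higher and 16.4% lower. At an unadjusted p under 0.05, 1 of the 10 was higher and 3 were lower, and DESeq2 called 1 higher and 1 lower. The gene that fell was TULP4, with 3230, 3140 and 2862 counts in Input and 29, 19 and 16 in IP (log2 ratio -0.62 ± 0.174, edgeR adjusted p = 0.00262). In CPM it had 273 ± 0.546 in Input and 204 ± 56.2 in IP, and the ranges did not overlap. Without IP replicate 2 its adjusted p was 0.0623, and with library size alone 0.150.

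SP100 was well measured in K562 Input, unlike in mES cells. It had 1283, 1263 and 1085 counts in Input and 9, 4 and 18 in IP, which is 107 ± 3.11 CPM against 104 ± 80.7 CPM, with a log2 ratio of -0.32 ± 0.255 that did not pass (edgeR, adjusted p = 0.363). Without IP replicate 3, which was the highest, the ratio was -1.05 (adjusted p = 0.0185). SP110 had 221, 200 and 192 counts in Input and 2, 3 and 1 in IP, and a log2 ratio of -0.12 ± 0.613 (adjusted p = 0.915). SP140 had 13, 21 and 12 counts in Input and 0, 1 and 1 in IP and was not tested. SYTL3, a synaptotagmin-like gene, had the highest ratio, 1.66 ± 0.818, from 1, 2 and 2 IP counts (adjusted p = 0.113).

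Other tested genes were CAB39, EZR, GTF2H5, ITM2C, RTRAF and SERAC1, whose log2 ratios ran from -0.59 to 0.25 and did not pass. With 93110 to 111286 gene counts per IP library, a missing call here does not show that IP and Input are alike. Human genes named like a mouse family without its copy letter were added after the values were seen. TMEM181 had 50, 41 and 35 IP counts, and its log2 ratio of 0.30 ± 0.139 did not pass with TMM (edgeR, adjusted p = 0.0873) and was 0.57 with library size alone (adjusted p = 9.74e-04). DYNLT1 had 3, 3 and 2 IP counts and a log2 ratio of 0.12 ± 0.544 (adjusted p = 0.902).

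**Figure D5:**
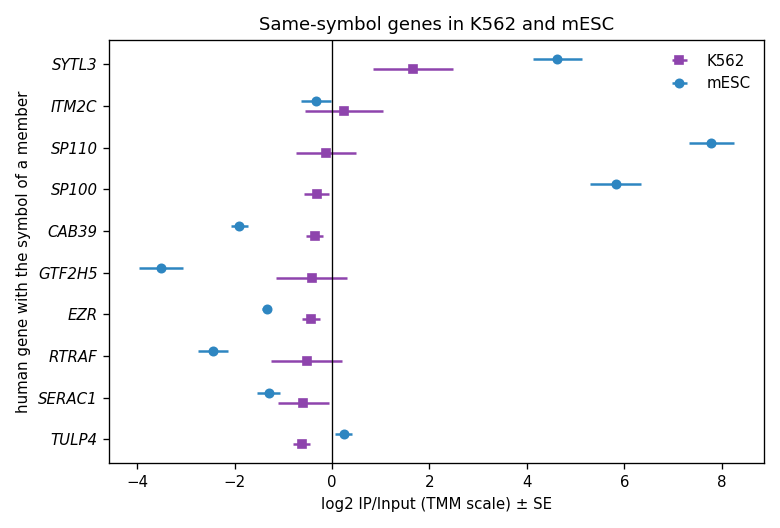
TMM-scaled log2 IP/Input ratio with its SE (x axis) for the 10 tested human genes that share a symbol with a member, in K562 (purple squares) and for the member in mES cells (blue circles). SP100 and SP110 lie near 0 in K562 and at 5.82 and 7.79 in mES cells, where they had 20 and 14 Input counts over 3 libraries; the difference between the cell lines was not tested.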

How the data were processed

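caRNA was sequenced from mES cells and K562 cells (3 Input and 3 IP libraries each). Reads were trimmed with Trimmomatic (0.39) and aligned to mm10 or hg38 with HISAT2 (2.1.0), deduplicated, split by strand with SAMtools (1.16.1) and used to call peaks per replicate with MACS2 (2), per the labels and the study's methods. The deposited counts are whole reads per GENCODE gene. The deposited peak lists give positions and strand; their score column is empty, and repeated lines were dropped. The last lines of the count files have the form of HTSeq's totals. Whether strand was used in counting is not given in the sources used here, but the counts of nested genes differed by strand, as described above. Unassigned summary lines (at most 19.3% of Input and 71.7% of IP reads in mES cells, 26.2% and 61.4% in K562) were left out of library sizes. Total gene counts limit precision, and floors of 3 counts cover counting error only.

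Counts were fitted for all genes of a cell line with edgeR (4.0.16, R 4.3.3; TMM, filterByExpr, glmQLFit and glmQLFTest, Benjamini-Hochberg, threshold 0.05); DESeq2 (1.42.0) was an alternative. On simulated counts with 200 genes changed by 2 on the log2 scale, 200 were recovered over 15432 mouse genes and 200 over 13376 human genes, with 6.1% and 6.98% false calls. The changed genes were drawn only from those above a minimum expected IP count, so recovery of genes with few IP counts was not tested. Few genes were changed there, whereas 82.0% of tested mouse genes were called in the data. Gene positions came from GENCODE M21 (99.9% of mouse IDs) and v44 (99.1% of human IDs). Sequence copies were counted as 31-base words in RefSeq's GRCm38 with patches and alternate loci left out (Python 3.11.15, numba 0.67.0). Peaks overlapping by 1 bp on a strand were merged; an overlap of 75 bp, 2 of 3 replicates, and no strand were alternatives.

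Over genes, K562 Input replicate 1 differed from replicates 2 and 3 by less than counting noise (chi-square per degree of freedom 0.912 and 0.918). Over 20 bins of transcript G+C content it did differ (27.2 and 18.3), so 3 replicates were kept, and sums of replicate 1 with each of the others were added as alternatives after the data were seen.

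The members, gene lists and the naming rule were chosen with earlier results of these data known. Named were, per window, the 5 members highest in IP and the 3 highest in Input (10 counts or more in all), the 3 with the most shared regions, all Sp100, Dynlt1 and Tmem181 genes, human genes sharing a symbol, and the highest and lowest gene of each list (1 of these is not reported here); Pml, Sumo3, Dctn3, Dynlt3, Gtf2h5, Gm13804, Gm13806 and the added human genes were named after their values were seen.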

Additional observations from a re-analysis of the deposited data

Results flagged for a closer look

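TULP4 in K562 and Tulp4 in mES cells lay on opposite sides of Input in CPM. All 3 IP values were below all 3 Input values in K562, and all 3 were above in mES cells. The TMM-scaled log2 IP/Input ratio was -0.62 in K562 and 0.24 in mES cells, where it was not called. Without the low-count filter the mES cell ratio was -0.20, the same sign as in K562 (-0.96), and with library size alone the ratios were -0.35 and 1.24. The difference between the cell lines was not tested. No group here has 4 or more libraries, so no library was examined as standing apart from its group.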

How the results depend on the processing

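For the members in mES cells, 44 were called in all, and the alternatives gave 41 to 64, with the highest number when the low-count filter was dropped (97 genes tested). With library size alone 36 were higher and 6 lower, against 30 and 14. The K562 count of 1 became 0 with library size alone, 5 without the filter and 2 with DESeq2, and ran from 0 to 3 when 1 library was left out; it was 1 with either sum of Input replicates. The PML nuclear body count was 8 to 11 and the dynein count 13 to 20. Shared regions in the windows numbered 69, 129 when 2 of 3 replicates sufficed, 68 with an overlap of 75 bp, 61 without strand, and 82 to 99 when 1 list was left out. With library size alone 6 named genes that were called in at least 1 of the 2 fits changed sign: 6820431F20Rik (0.78), 2610005L07Rik (0.98), Gng2 (0.20), Tmem181a (0.14), Tmem181b-ps (0.53, called in both fits) and Hipk2 (0.74). Members and list genes that are not named were left out of this count, and some of them may change sign as well. That scaling moves the median of all mouse genes from -0.17 to 0.83 and the share of calls that are higher from 48.7% to 67.9%; in K562 these go from -0.16 to 0.11 and from 47.9% to 70.2%, and DESeq2 gives 64.8% there.

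Replicate numbers matched Input with IP libraries at most weakly. The correlation of same-numbered deviations was 0.0183 to 0.0273 in mES cells, where differently numbered ones gave -0.0243 to -0.00113. In K562 the same-numbered correlation was -0.00666 to 0.0219. With a replicate block, the counts were 43 members, 1 K562 gene, 10 PML nuclear body genes and 18 dynein genes, and 15434 of all mouse genes in place of 16590 (K562, 3940 in place of 4576). Each mES cell Input library correlated best with the IP library of its own number. Depth limits the IP side most: 3 counts are 5.06 to 6.34 CPM there.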
